A study of Rattus norvegicus with 10 samples.

Results

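Granular duct kallikreins are 10 genes of the rat kallikrein cluster, Klk1, Klk1b3, Klk1c2, Klk1c3, Klk1c4, Klk1c8, Klk1c9, Klk1c10, Klk1c12 and Klk7. They were followed here in submandibular gland of 2 rat strains. The members were taken by gene symbol, and every non-control probe with a member's symbol was used. This gave 9 probes for 8 of the 10 genes, among 30367 non-control probes and 14711 genes tested. By RefSeq accession no probe had the symbol Klk1c3 or Klk1c4. A further 12362 probes had no symbol by accession, and whether any of them reads these 2 genes was not tested. Klk7 had 2 probes and each other gene 1: A_44_P399414 (Klk1), A_43_P14558 (Klk1b3), A_44_P182195 (Klk1c2), A_42_P550360 (Klk1c8), A_44_P163243 (Klk1c9), A_44_P280954 (Klk1c10), A_44_P278653 (Klk1c12), A_64_P091248 and A_64_P091254 (Klk7). The probes' own sequences were not analysed here. Whether a probe also binds transcripts of the other Klk1 genes, including the 2 for which no probe was found, was therefore not tested. Each value below belongs to a probe.

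The study compared male spontaneously hypertensive rats (SHR), inbred animals whose blood pressure climbs with age, with Wistar-Kyoto rats (WKY), the normotensive strain from the same stock, all aged 14 weeks and untreated as far as the labels say. The strains differ across the genome, so a strain difference is not a blood pressure difference alone. RNA of 5 glands per strain was read on 10 one-colour Agilent arrays, each called by its strain and the hyphenated number in its title. Values are log2 processed intensities relative to the array's own 75th percentile of all probes, so that 0 is the level of that percentile; levels of different probes are not set against each other.

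Tissue kallikreins are serine proteases that salivary duct cells pack into secretory granules. Klk1 releases vasoactive kinin peptides from kininogens, and its gene has been copied many times in rodents into paralogs whose products cut other substrates. In the rat submandibular gland the granular convoluted ducts hold them together with growth factors such as Egf, and androgens, thyroid hormone and sympathetic nerves act on these ducts. Klk7, a chymotrypsin-like enzyme best known from skin, lies outside the Klk1 subfamily.

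All 10 genes lie on chromosome 1, among 31 genes and pseudogenes with kallikrein symbols in the gene table of assembly GRCr8. Genes with other symbols were left out of the order. In it Klk1c12 and Klk1c10 are separated by a single pseudogene, Klk1c4 lies on the far side of Klk1c10, and Klk7 stands among the other kallikrein-related peptidases. Since members moved together in 1 array, as described below, their upstream sequences are shown. RefSeq promoter windows of the GRCr8 reference, 250 bases before to 50 after each start, were found for 9 of the 10 genes. The reference strain is neither SHR nor WKY. Below, 156 bases up to and including TTTAAA are given for Klk1 (chr1:103779011-103779166, plus strand), Klk1c2 (chr1:103633029-103633184, minus strand), Klk1c10 (chr1:103543658-103543813, minus strand) and Klk1c12 (chr1:103518740-103518895, minus strand). Capitals mark TTTAAA and, upstream of it, AGGGCCCTCCCCT and AGGGCAGGG, the longest and 1 of 2 equally long next runs that a search found in every Klk1-subfamily window.
Klk1: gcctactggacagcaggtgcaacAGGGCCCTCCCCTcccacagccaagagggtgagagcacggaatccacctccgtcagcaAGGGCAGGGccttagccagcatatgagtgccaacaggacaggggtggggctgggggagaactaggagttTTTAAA
Klk1c2: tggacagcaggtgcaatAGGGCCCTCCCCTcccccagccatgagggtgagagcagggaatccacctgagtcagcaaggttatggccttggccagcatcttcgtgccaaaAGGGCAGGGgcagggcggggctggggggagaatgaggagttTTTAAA
Klk1c10: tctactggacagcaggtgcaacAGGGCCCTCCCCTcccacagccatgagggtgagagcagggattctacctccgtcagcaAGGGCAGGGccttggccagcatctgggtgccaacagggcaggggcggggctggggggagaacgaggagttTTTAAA
Klk1c12: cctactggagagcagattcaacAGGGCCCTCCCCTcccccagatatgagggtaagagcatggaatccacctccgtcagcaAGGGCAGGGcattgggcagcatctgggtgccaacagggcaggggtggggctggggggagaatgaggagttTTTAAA

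By that choice all 3 runs were present in 8 of the 9 windows; the window of Klk7 holds none of them. Searched on both strands, AGGGCCCTCCCCT was found in 16 of all 33469 windows of 300 bases (0.0478%), AGGGCAGGG in 1.27% and TTTAAA in 13.6%. The longest run began 125 to 133 bases upstream of TTTAAA in the 8 windows. AGGGCAGGG began 68 to 70 bases upstream except in Klk1c2, where it began 41 bases upstream. Identity between the 8 stretches ranged from 79.3% to 94.3% over 28 pairs, with a median of 88.0%, and was 90.4% between Klk1c10 and Klk1c12. These are letters in a reference, not measured binding sites.

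On each array 94.8% to 97.7% of 42877 spots were well above background and 0 were saturated, and the 75th percentile of the intensity lay between 333 and 648. All 9 member probes were well above background on all 10 arrays. The Klk7 probes had intensities of 28.7 to 91.4, below the 75th percentile of every array. Slide 1 carried SHR 2-3, 3-1, 3-3 and 3-4, slide 2 SHR 2-1 with WKY 1-5, 4-1 and 4-2, and slide 3 WKY 1-2 and 1-3, by scan time. SHR 3-3 differed from the 4 remaining SHR arrays, with 420 of 14710 genes (2.86%) at least 2-fold below their mean. It also had the lowest 75th percentile and the lowest share of spots above background. The members' results are therefore given with and without it. In a bulk gland, fewer cells of a type and less RNA per cell cannot be told apart.

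The kallikreins did not follow a single direction between the strains. With all 10 arrays none of the 8 measured genes passed the test. With SHR 3-3 left out, Klk1c10 was 1.74-fold higher in SHR and the nearby Klk1c12 1.79-fold lower. In SHR 3-3 itself, 6 of the 8 were at least 2-fold below the other SHR arrays, by up to 34.0-fold for Klk1c12.

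**Figure D1:**
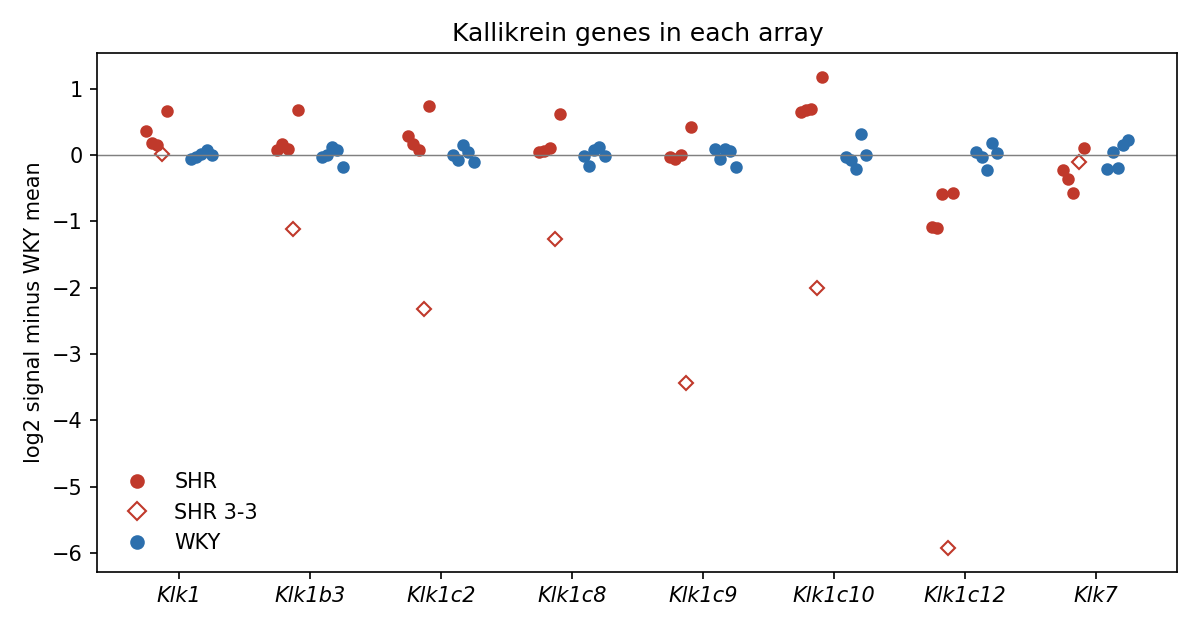
Log2 signal of each measured kallikrein gene in each array minus the gene's WKY mean, with 5 SHR arrays (red, SHR 3-3 as an open diamond) and 5 WKY arrays (blue); Klk7 is shown by probe A_64_P091254. Without the diamond, all Klk1c10 values of SHR lie above and all Klk1c12 values below those of WKY, and the diamond is the lowest of the 10 arrays in 6 of the 8 genes.

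Klk1c10 encodes the enzyme also known as T-kininogenase, which acts on a kininogen found in the rat. Its log2 value was 7.61 in SHR 2-1, 7.65 in SHR 2-3, 7.66 in SHR 3-1, 8.15 in SHR 3-4 and 4.96 in SHR 3-3. In WKY it was 6.94 (1-2), 6.89 (1-3), 6.75 (1-5), 7.28 (4-1) and 6.97 (4-2). Of the SHR arrays 4 thus lay above every WKY array and SHR 3-3 below all of them. The log2 difference of SHR minus WKY was 0.24 ± 0.47 (SE, n = 5 per strain; limma adjusted p = 0.822) with all arrays. Without SHR 3-3 it was 0.80 ± 0.13 (n = 4 and 5; 95% interval 0.51 to 1.09; limma adjusted p = 0.00514).

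Klk1c12, a member of the same subfamily, lay on the other side. Its log2 value was 4.69 in SHR 2-1, 4.68 in SHR 2-3, 5.19 in SHR 3-1, 5.20 in SHR 3-4 and −0.15 in SHR 3-3. In WKY it was 5.82 (1-2), 5.75 (1-3), 5.55 (1-5), 5.96 (4-1) and 5.81 (4-2). All 5 SHR arrays lay below all 5 WKY arrays, so this was the 1 member of 8 whose strains did not overlap over the 10 arrays, against 7.25% of all genes tested (3.14% with SHR above and 4.11% with SHR below). The difference was −1.86 ± 0.84 (SE, n = 5 per strain; limma adjusted p = 0.236), since SHR 3-3 widened the spread within SHR to an SD of 2.29, against 0.15 in WKY. Without SHR 3-3 it was −0.84 ± 0.13 (n = 4 and 5; 95% interval −1.13 to −0.55; limma adjusted p = 0.00383).

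In limma with all 10 arrays, 0 of the 8 members passed an adjusted p of 0.05, against 4.36% of all genes tested (1.51% higher and 2.85% lower), and 2 had an unadjusted p below 0.05 (Klk1 and Klk1c12), against 20.3%. Without SHR 3-3, 1 was higher and 1 lower, against 4.92% (1.6% and 3.32%), and the unadjusted count was 4 of 8, against 20.9%. Strains did not overlap in 3 of 8, Klk1, Klk1c10 and Klk1c12, against 9.68% of all genes (3.78% with SHR above and 5.9% below). The median difference over the 8 members was −0.15 with all arrays and 0.23 without SHR 3-3, beside −0.02 and −0.03 over all genes. These medians depend on the scaling: without SHR 3-3 quantile normalisation gave −0.01. The counts without SHR 3-3 depend on it too. With the authors' values Klk1 overlapped between the strains. The unadjusted limma p was then 0.596 for Klk1 and 0.487 for Klk1c2, while that of Klk1c9 was 0.045.

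**Figure D2:**
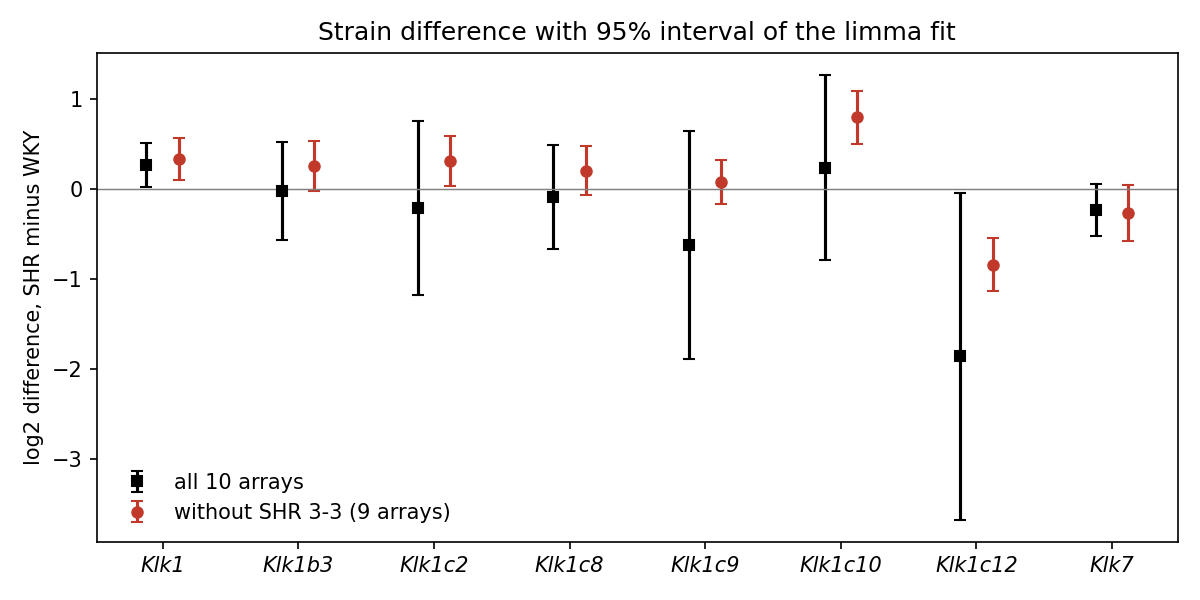
Log2 difference of SHR minus WKY for each measured kallikrein gene with the 95% interval of the limma fit, over all 10 arrays (black squares) and without SHR 3-3 (red circles). Without that array the intervals narrow, and those of Klk1c10 (0.51 to 1.09) and Klk1c12 (−1.13 to −0.55) lie farthest from 0.

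The calls of Klk1c10 and Klk1c12 without SHR 3-3 were kept with quantile normalisation, median scaling, normexp background correction, array weights, the authors' values and any further array left out. Over those alternatives the adjusted p was up to 0.0333 for Klk1c10 and 0.0136 for Klk1c12. Both were lost in the fit blocked by slide, in which SHR 2-1 is set against the 3 WKY arrays of slide 2. There Klk1c10 differed by 0.61 (limma adjusted p = 0.535) and Klk1c12 by −1.09 (0.0884), and 0.578% of all genes passed. Over all 10 arrays 0 of the 8 members passed in the blocked fit, against 0.299% of genes, and 0 of 8 on slide 2 alone, against 0.353%. Tested by probe, 0 of the 9 member probes passed with all arrays, against 3.84% of probes, and 2 of 9 without SHR 3-3, against 4.49%. On that slide SHR 2-1 lay outside the WKY range for both genes: 7.61 against 6.75 to 7.28 for Klk1c10, and 4.69 against 5.55 to 5.96 for Klk1c12. Between slides 2 and 3 the WKY means of these genes differed by 0.08 and −0.01.

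In the authors' deposited table the Klk1c10 probe read 16.67, 16.72, 16.77 and 16.81 in SHR 2-1, 2-3, 3-1 and 3-4, 13.61 in SHR 3-3, and 15.73 to 16.44 in WKY. In the same table the Klk1c12 probe read 13.75, 13.81, 14.27 and 14.08 in those 4 SHR arrays, 8.83 in SHR 3-3, and 14.51 to 15.10 in WKY. The order of the strains was thus the same on the authors' scale.

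Because a ratio of 2 signals within 1 array needs no scaling between arrays, the log2 ratio was taken for each of the 28 pairs of members. For Klk1c10 over Klk1c12 it was 2.92, 2.96, 2.47 and 2.95 in SHR 2-1, 2-3, 3-1 and 3-4, and 5.10 in SHR 3-3. In WKY it was 1.12, 1.14, 1.20, 1.32 and 1.16. The strains stood apart on this ratio with SHR 3-3 included, by 2.10 (SHR 3.28 ± 1.04, WKY 1.19 ± 0.08, SD, n = 5 each), a 4.27-fold shift. Without SHR 3-3 the shift was 1.64, or 3.12-fold, from an SHR mean of 2.83 ± 0.24 (SD, n = 4). It was present on slide 2 alone, where SHR 2-1 had 2.92 and the WKY arrays 1.16 to 1.32. In the authors' deposited table the same ratio ran from 2.50 to 4.78 in SHR and reached at most 1.34 in WKY.

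Of the 28 pairs, 10 did not overlap between strains with all arrays, against 8.62% of all pairs of tested genes, and 16 without SHR 3-3, against 10.7%. Pairs share genes and are not independent. With all arrays 6 of the 7 pairs with Klk1c12 were apart, and without SHR 3-3 all 7 pairs with Klk1c10 and 6 with Klk1c12. The ratio of Klk1 to Klk1c12 shifted by 2.13 with all arrays and 1.18 without SHR 3-3. The ratio of Klk1c2 to Klk1c10 shifted by −0.45 and −0.49. Here SHR 3-3 (−0.20) lay between the other SHR arrays (−0.50 to −0.25) and the WKY arrays (−0.16 to 0.48), close to both. By contrast, the ratio of Klk1 to Klk1c2 overlapped, with a shift of 0.02 without SHR 3-3.

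**Figure D3:**
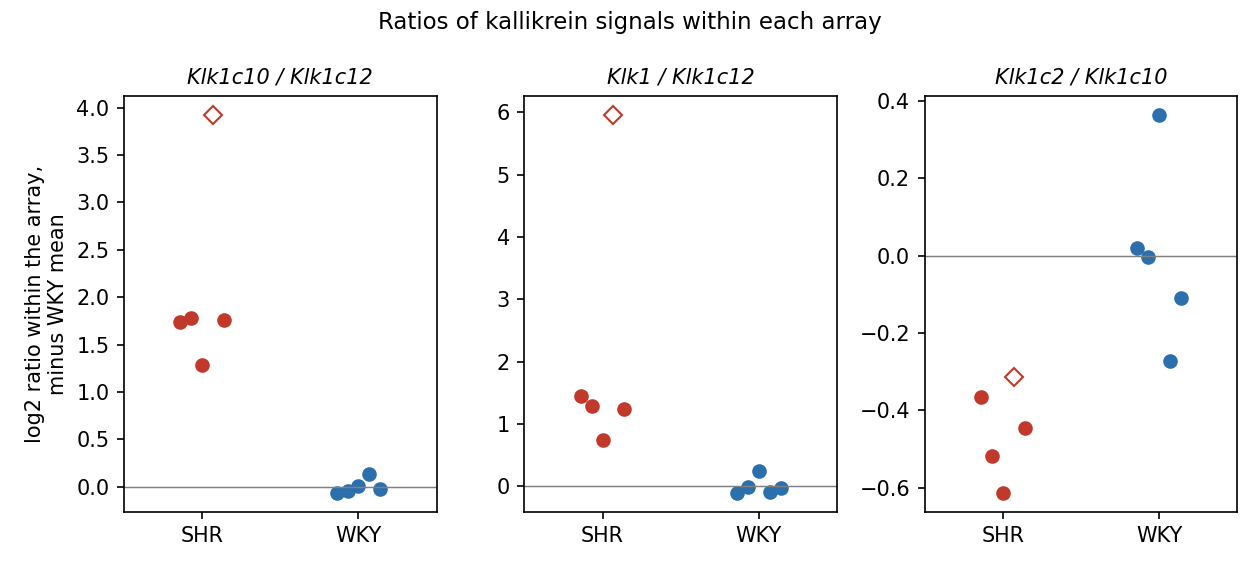
Log2 ratio of 2 kallikrein signals within each array minus its WKY mean, for Klk1c10 over Klk1c12, Klk1 over Klk1c12 and Klk1c2 over Klk1c10 (SHR red, SHR 3-3 as an open diamond, WKY blue); each panel has its own vertical scale. In all 3 the strains do not overlap, and in the panel of Klk1c2 over Klk1c10 SHR 3-3 lies between the other SHR arrays and the lowest WKY array, close to both.

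Klk1, the kininogen-cleaving enzyme itself, varied least within WKY on this scale (7.63 ± 0.06, SD, n = 5), though not in the authors' deposited table. It read 7.99, 7.82, 7.78 and 8.29 in SHR 2-1, 2-3, 3-1 and 3-4 and 7.66 in SHR 3-3. In WKY it read 7.57 (1-2), 7.60 (1-3), 7.65 (1-5), 7.72 (4-1) and 7.63 (4-2). On this scale the 4 other SHR arrays lay above all WKY arrays, and SHR 3-3 lay within the WKY range. The difference was 0.27 ± 0.11 (SE, limma adjusted p = 0.196), and 0.34 ± 0.11 (0.0992) without SHR 3-3. With quantile normalisation of the 9 arrays it was 0.04 (0.815). In the authors' deposited table Klk1 had the same value, 16.94, in SHR 2-1 and WKY 4-2. There SHR 3-3 read 16.06, below all WKY arrays (16.72 to 16.97).

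Klk1c2 encodes tonin, which can release angiotensin II from angiotensinogen. It read 7.36, 7.25, 7.16 and 7.82 in SHR 2-1, 2-3, 3-1 and 3-4, 4.76 in SHR 3-3, and 6.97 to 7.23 in WKY. The strains overlapped with and without SHR 3-3. The difference was −0.21 ± 0.44 (limma adjusted p = 0.832), and 0.32 ± 0.13 (0.183; 95% interval 0.04 to 0.59) without SHR 3-3.

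Klk1c9 read 7.28, 7.25, 7.30 and 7.73 in SHR 2-1, 2-3, 3-1 and 3-4, against 3.87 in SHR 3-3 and 7.14 to 7.40 in WKY. Apart from SHR 3-3 the strains were close, at 7.39 ± 0.23 (SD, n = 4) and 7.31 ± 0.12 (n = 5), a difference of 0.08 with a 95% interval of −0.16 to 0.33 (limma adjusted p = 0.735). With all arrays it was −0.62 ± 0.58 (0.585).

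Klk1b3 and Klk1c8 overlapped between strains in the same way. Klk1b3 read 7.53 to 8.12 in the 4 other SHR arrays, 6.34 in SHR 3-3 and 7.27 to 7.57 in WKY. Its difference was −0.02 ± 0.25 (limma adjusted p = 0.978), and 0.25 ± 0.13 (0.279) without SHR 3-3. Klk1c8 read 7.45 to 8.03 in those SHR arrays, 6.14 in SHR 3-3 and 7.24 to 7.53 in WKY. Its difference was −0.09 ± 0.27 (limma adjusted p = 0.887), and 0.21 ± 0.12 (0.385) without SHR 3-3.

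Klk7 had 2 probes. Its probe A_64_P091254 read −3.49 to −2.82 in SHR and −3.13 to −2.70 in WKY, with a difference of −0.23 ± 0.13 (limma adjusted p = 0.352), and −0.26 ± 0.14 (0.322) without SHR 3-3. The other probe, A_64_P091248, read −3.54 to −2.90 and −3.43 to −3.05, with a difference of 0.04 ± 0.13 (limma adjusted p = 0.903 over all probes), and 0.11 ± 0.12 (0.673) without SHR 3-3. The strains overlapped on both probes, and the signs differed.

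On this scale SHR 3-4 had the highest SHR value for all 8 genes (Klk7 by probe A_64_P091254). Its Klk1, Klk1b3, Klk1c2, Klk1c8, Klk1c9 and Klk1c10 were above every other array. In the authors' deposited table SHR 2-1 was higher than SHR 3-4 for Klk1 (16.94 against 16.92). There SHR 3-1 was higher for Klk1c9 (16.42 against 16.38) and Klk1c12 (14.27 against 14.08), while SHR 3-4 stayed the highest SHR array for the other genes. Leaving out SHR 3-4 as well as SHR 3-3 gave a median member difference of 0.09 in place of 0.23. Klk1c10 (0.67, limma adjusted p = 0.0102) and Klk1c12 (−0.93, 0.00396) still passed.

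In SHR 3-3 the 7 measured Klk1-subfamily genes were below the average of the remaining SHR arrays, by very different amounts. Against the mean of those 4 arrays, Klk1c12 differed by −5.09 on the log2 scale, the lowest value among the 14710 genes compared. Klk1c9 was 11.5-fold lower, Klk1c10 7.02-fold and Klk1c2 6.23-fold, while Klk1c8 was 2.78-fold, Klk1b3 2.58-fold and Klk1 1.24-fold lower. The size for Klk1 depends on the scaling: in the authors' deposited table it differed by −0.84 on the log2 scale. The 2 probes of Klk7 differed in sign there, A_64_P091254 by 0.15 and A_64_P091248 by −0.36. In each of the other 9 arrays 0 of the 8 members were at least 2-fold below the rest of their strain. A single array gives no replicate check of these values.

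Other products of the granular ducts did not all share this pattern. Egf, the growth factor stored in the same granules, differed by −4.31 in SHR 3-3, the third lowest of all genes. Tgfa differed by −0.09 and Igf1 by −0.70. The summed linear level of the 8 kallikreins, in units of each array's 75th percentile, was 427 in SHR 3-3, 1128 to 1613 in the other SHR arrays and 969 to 1103 in WKY. Between strains 0 of the 4 other granular duct products passed with all arrays (0 at an unadjusted p below 0.05 in limma, against 20.3% of all genes). Egf had a difference of −0.96 ± 0.74 (limma adjusted p = 0.494) with all arrays and −0.10 ± 0.26 (0.863) without SHR 3-3.

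Markers of several cell types moved with the kallikreins in SHR 3-3. Of 18 measured duct cell markers, 6 were at least 2-fold lower there: Cftr (−2.56), the transcription factor Foxi1 (−2.45), the keratins Krt7 (−2.20) and Krt19 (−1.32), Wfdc2 (−2.08) and the tight junction gene Cldn4 (−1.81). Another 1 of the 18 was at least 2-fold higher (1.72), and the median of the list was −0.37. The summed level of the duct list was 55.4 in SHR 3-3, 79.0 to 99.1 in the other SHR arrays and 82.2 to 87.9 in WKY. Of 6 fibroblast markers 4 were at least 2-fold lower (sum 5.15, against 12.8 to 14.1 and 13.7 to 20.9), and of 7 macrophage markers 2 (sum 5.28, against 7.34 to 10.7 and 11.1 to 16.4). None of 15 acinar markers was 2-fold lower or higher, their median was 0.43 above the other SHR arrays, and their sum was 2083, against 1186 to 1711 and 989 to 1157. All 15 acinar markers and 17 of the 18 duct markers were above background on all 10 arrays. So were all 4 skeletal muscle and all 6 T and B cell markers measured, so this does not check the labelled tissue. The part of these cell types or of array quality in the kallikrein values of SHR 3-3 was not tested. The differences of Klk1c10 and Klk1c12 between the strains are given with and without that array, and the part of cell types in them was not tested either.

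**Figure D4:**
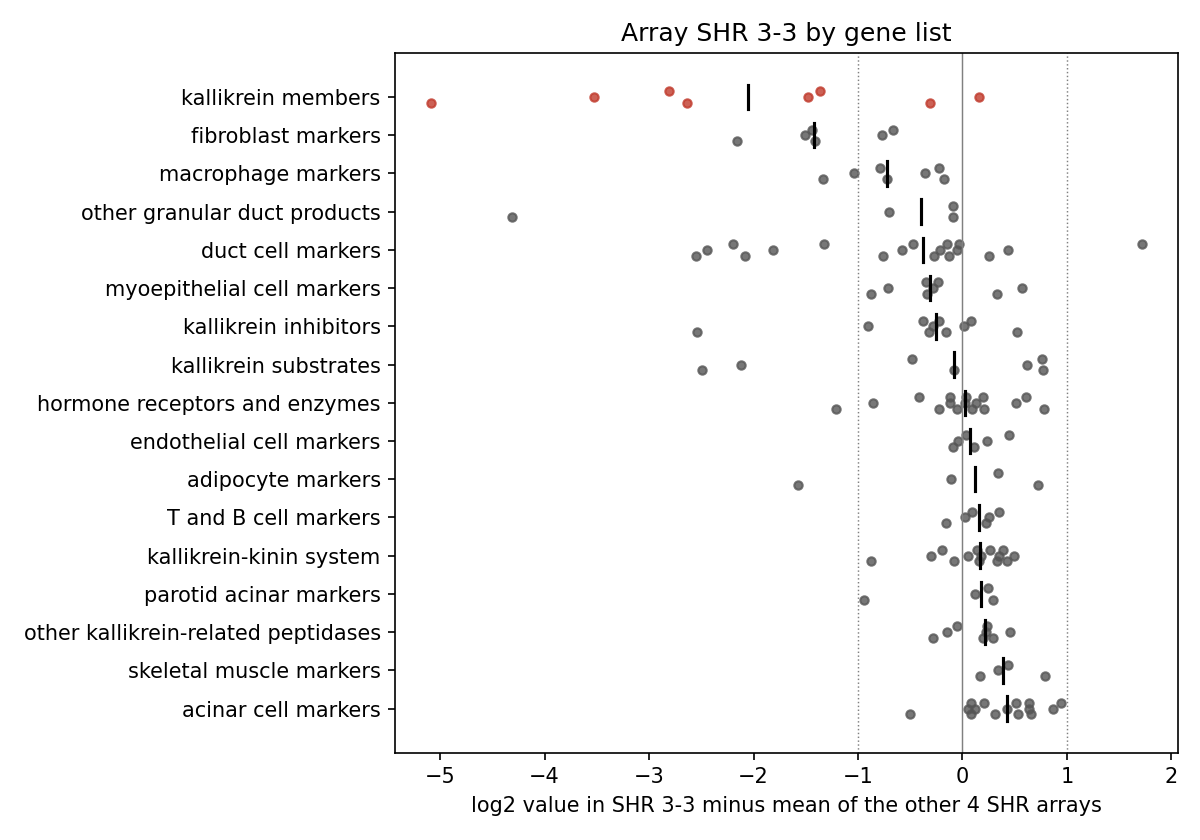
Log2 value in SHR 3-3 minus the mean of the other 4 SHR arrays for each gene (points) of 17 lists with at least 4 measured genes, the black bar marking the list median and the dotted lines a 2-fold change. The kallikreins (red) reach from −5.09 to 0.15, with 6 of 8 beyond the lower dotted line, whereas none of the 15 acinar markers lies beyond either.

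Between the strains the duct and acinar lists held differences of both signs, whereas all measured fibroblast and macrophage markers were lower in SHR. The differences of the 6 fibroblast markers ran from −0.79 to −0.31 with all arrays and from −0.66 to −0.02 without SHR 3-3. Those of the 7 macrophage markers ran from −0.97 to −0.22 and from −0.93 to −0.03. Of the 18 duct markers 1 was higher (Clu, clusterin, 1.21 ± 0.17, limma adjusted p = 0.00113) and 1 lower (Slc4a4, −0.47, 0.0176, and 0.0555 without WKY 1-2) with all arrays. Without SHR 3-3, 4 were higher and 1 lower; Krt7 rose by 0.64 ± 0.13 (limma adjusted p = 0.0154), Krt19 by 0.62 ± 0.10 (0.00393) and Atp6v1b1, a proton pump subunit, by 0.55 ± 0.13 (0.0312). The Krt7 call was lost without SHR 3-1 as well (0.0502), and that of Atp6v1b1 without any 1 of SHR 2-1, 3-1, 3-4 or WKY 1-2, 1-3 or 4-2 (up to 0.0878). The median difference of the 15 acinar markers was 0.23 with all arrays and 0.21 without SHR 3-3, against −0.02 and −0.03 over all genes. At an unadjusted p below 0.05 in limma the counts were 11 and 9 of 15, against 20.3% and 20.9% of all genes. Past the adjusted threshold, 1 of the 15 was higher and 3 lower in both fits. The lower ones were Smgc (−4.10, and −4.16 without SHR 3-3), Cyss (−4.06 and −3.96) and Prpmp5 (−1.73 and −1.86). The higher one, the opiorphin precursor gene Oprpn, had a difference of 0.61 (limma adjusted p = 0.0434), and 0.48 (0.0397) without SHR 3-3, and its call was lost in 14 of 22 and 11 of 15 alternatives.

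Of the markers of other cell types, the macrophage gene Cd68 was lower in both fits (−0.97, limma adjusted p = 0.00668, and −0.93, 0.0117), as was the parotid gene Prb3 (−0.64, 0.0127, and −0.69, 0.00876). The macrophage gene Aif1 was lower too (−0.81, limma adjusted p = 0.0293, and −0.65, 0.0254), but lost its call in 7 of 22 alternatives, with an adjusted p of up to 0.0851 on leaving out 1 array. The fibroblast gene Col1a1 (−0.79, limma adjusted p = 0.0438) lost its call in 12 of 22, among them the fit without SHR 3-3 (−0.66, 0.0596). Without SHR 3-3 the adipocyte gene Cidea was lower (−0.59, limma adjusted p = 0.0143). None of 8 myoepithelial, 6 endothelial, 6 T and B cell, 4 skeletal muscle and 2 sublingual mucous markers passed in either fit. At an unadjusted p below 0.05 in limma the counts were 2, 1, 2, 1 and 0 with all arrays, against 20.3% of all genes. The largest differences in these lists with all arrays were those of Myh11 (0.33), Pecam1 (0.41), Cd79b (−0.25), Ckm (0.49) and Tff2 (−0.15). With the slide as a block over all 10 arrays, Smgc and Cyss alone kept their calls among the marker genes named here that had passed; Clu (limma adjusted p = 0.101) and Prpmp5 (0.0613) did not. In the blocked fit without SHR 3-3, Clu, Smgc, Cyss and Prpmp5 passed, whereas Krt19 (limma adjusted p = 0.422), Krt7 (0.481) and the others did not. So in the 9 arrays some duct markers were higher in SHR beside Klk1c10 in the fit without the block, and their part in its difference was not tested; Klk1c12 was lower in the same arrays.

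Of 14 measured genes of the kallikrein-kinin system, Ace, the enzyme that degrades bradykinin, rose by 0.52 ± 0.10 (SE, n = 5 per strain; limma adjusted p = 0.0134), and by 0.45 ± 0.09 (0.0142) without SHR 3-3. The other 13 did not pass; the kininogen gene Kng2 had a difference of −0.30 (limma adjusted p = 0.140; −0.24 without SHR 3-3) and the kinin receptor gene Bdkrb2 one of −0.03 (0.882; −0.06 without it). The list median was −0.11 in both fits.

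Among 10 measured inhibitors, 2 fell in both fits and 8 did not pass. Serpina1, alpha-1-antitrypsin, fell by 1.18 ± 0.12 (SE, n = 5 per strain; limma adjusted p = 8.3e-05), and by 1.12 ± 0.11 (0.000149) without SHR 3-3. Serpina4, kallistatin, the serpin that binds tissue kallikrein, fell by 0.60 ± 0.13 (0.0205), and by 0.71 ± 0.10 (0.00171) without SHR 3-3. With all 10 arrays its call was lost on leaving out SHR 2-3, WKY 1-2 or WKY 1-3 (adjusted p up to 0.0597). The skin-type inhibitor Spink5 differed by −2.54 in SHR 3-3.

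Of 7 proposed substrates at the duct cell, among them protease-activated receptors and subunits of the epithelial sodium channel, 0 passed in either fit of limma. An unadjusted p below 0.05 was found for 2 of the 7 in each fit, against 20.3% and 20.9% of all genes. The widest differences with all arrays were −0.60 for Scnn1g and 0.45 for the receptor gene F2rl3; without SHR 3-3 they were −0.10 and 0.30, and the lowest of the list was −0.31. The channel subunits Scnn1b and Scnn1g differed by −2.12 and −2.49 in SHR 3-3. Of 16 receptors and enzymes of the hormones and nerves that act on the ducts, 15 did not pass with all arrays and 14 without SHR 3-3. With the slide as a block none of Ace, Serpina1 and Serpina4 passed.

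The other kallikrein-related peptidases of the cluster were measured as well. Of 8 measured, Klk4, Klk6 and Klk8 to Klk13, 0 passed in either fit. At an unadjusted p below 0.05 in limma the count was 0 in both, against 20.3% and 20.9% of all genes. These 8 genes had differences between −0.19 (Klk11) and 0.17 (Klk13) with all arrays, and between −0.21 and 0.11 without SHR 3-3. In SHR 3-3 they differed by −0.29 to 0.45 from the other SHR arrays.

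Across the 10 arrays the Klk1-subfamily members had a median Pearson correlation of 0.89 over 21 pairs (0.02 to 0.98), against 0.01 over the 7 pairs with Klk7. Over the 9 arrays without SHR 3-3 the median was 0.79. There all 6 subfamily pairs with Klk1c12 were negative, from −0.68 with Klk1c10 to −0.05 with Klk1c9 (median −0.46). The other 15 lay between 0.51 and 0.95 (median 0.87). Both strains are pooled in these values, so the lower Klk1c12 of SHR beside the higher means of the other genes enters them. Correlation within a strain was not computed. The members' mean, with each gene centred on its own mean, was 0.64 in SHR 3-4. In the other arrays apart from SHR 3-3 it was 0.11 (WKY 1-3) to 0.29 (WKY 4-1). The weight of SHR 3-4 in the correlations over 9 arrays was not tested. All these correlations are descriptions over few arrays that share RNA and scaling. Among the 8 genes most like the members' mean over 10 arrays were Col4a1 (r = 0.99, Spearman rho = 0.56), the protease gene Tmprss7 (0.98, 0.62), the sodium pump subunit gene Fxyd2 (0.98, 0.72), Tfcp2l1, Capg, Or4c1 and Hsf4. All 8 differed by −3.77 to −1.62 in SHR 3-3 on the log2 scale, so these correlations rest on that array. Over the 9 other arrays a different set led, with Or5ac23 (r = 0.97, rho = 0.45), Or7e171 (0.96, 0.80), Nprl2 (0.95, 0.73), Fuca1 (0.95, 0.90), Or4c3, Abcg3, P3h3 and Vom1r81. No gene was in both sets of 8.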

How the data were processed

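Per the file headers, the authors' one-colour Agilent scans were read with Feature Extraction 11.0.1.1, and the deposited processed signal is a background-corrected intensity on a linear scale, not normalised between arrays. For 30423 probes the authors' deposited table gives log2 values with 1 common median (7.19), by steps not given in the sources used here. Per the labels' protocols, RNA was Trizol-extracted, amplified and labelled with Cy3.

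The log2 processed intensity was reduced by each array's 75th percentile, outlier spots were left out and spots of a probe averaged. Probes well above background on at least 5 arrays were kept (29266 of 30367). Symbols came from RefSeq accessions in the GRCr8 gene table: 18005 probes had 1 symbol, 0 several and 12362 none. The brightest kept probe stood for each of 14711 genes, which limma (3.58.1, R 4.3.3; lmFit and eBayes, two-sided) compared between strains, with Benjamini-Hochberg adjustment over all genes and a threshold of 0.05. The number of arrays limits the precision. On simulated data of SHR minus WKY over 14711 genes, the fit with all 10 arrays recovered 48% of genes changed by 0.5 and 96% by 1, with 11 false calls of 182. Without SHR 3-3 it recovered 48% and 94%, with 8 of 179. The simulated noise was normal with equal spread in both strains. A single low array, as for Klk1c12 in SHR, was not simulated, so recovery for such genes was not tested.

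Named were all members, in each other list up to 4 genes past the threshold or 2 as values, Egf, and the 8 genes most like the members' mean; genes singled out in SHR 3-3, Slc4a4, Kng2, Bdkrb2 and Tgfa were added after their values were seen, and some genes that meet the rule are not reported here. Members and gene lists (18, with 188 symbols) were chosen with earlier results of these data known. Alternatives covered the scaling, normexp background correction (offset 50), the authors' values, the filter, outlier spots, probe averaging, array weights, the variance model, the slide and each array left out. Combinations with SHR 3-3 left out and the ratios within arrays were chosen after seeing the data.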

Additional observations from a re-analysis of the deposited data

Results flagged for a closer look

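Within the 5 SHR arrays, SHR 3-3 was the lowest for 4 of the 8 members by a gap that exceeded Dixon's 95% limit. Its log2 value was 4.76 for Klk1c2, 3.87 for Klk1c9, 4.96 for Klk1c10 and −0.15 for Klk1c12. Of the 16 sets of 5 arrays examined (8 members in each strain) these were the 4 that stood out, where chance gives about 1 in 20, and all 4 come from the same array, so they are not independent. In WKY 0 of the 8 did.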

How the results depend on the processing

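With all 10 arrays, 0 members passed upward or downward in 21 of 22 alternatives; the exception, leaving out SHR 3-3, gave 1 higher (Klk1c10) and 1 lower (Klk1c12), so that leaving out 1 array gave 0 to 1 in each direction. Without SHR 3-3, the 1 higher and 1 lower member passed in 14 of 15 alternatives and became 0 and 0 with the slide as a block. For members that did not pass, over the 22 alternatives to the fit on all arrays the sign turned in 7 for Klk1b3, 4 for Klk1c2, 3 for Klk1 and 2 for Klk1c8, in 1 each for Klk1c9 and Klk1c10, and in 0 for Klk1c12 and Klk7. Without SHR 3-3 the median member difference of 0.23 was −0.012 with quantile normalisation, −0.032 with normexp, −0.0076 with the authors' values and 0.028 with the slide as a block; the cause was not tested.

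Over all genes, the 222 higher and 419 lower calls became 418 and 434 with quantile normalisation, 336 and 386 with median scaling, 334 and 362 with normexp, 423 and 433 with the authors' values, 12 and 32 with the slide as a block, and 14 and 38 on slide 2 alone; slide 2 carries the contrast in both. Leaving out 1 array gave 125 to 237 higher and 218 to 513 lower. Without SHR 3-3, the 236 higher and 488 lower became 360 and 388 with quantile normalisation, 305 and 398 with median scaling, 298 and 311 with normexp, 362 and 384 with the authors' values, and 21 and 64 with the slide as a block; leaving out a further array gave 155 to 243 and 300 to 712. No paired analysis was possible because the hyphenated title numbers are not shared between the strains. SHR 3-3 is 1 array, only slide 2 holds both strains, and the Klk7 probes lie below the 75th percentile of every array, which limits what these arrays show.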
